A study of Arabidopsis thaliana with 2 samples.

Results

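The genes described here are the trehalose-6-phosphate synthase (TPS) genes TPS1 and TPS5 to TPS11 and the genes KIN10 and KIN11, which encode catalytic subunits of the kinase SnRK1 in Arabidopsis thaliana. They were chosen by gene identifier and make 10 of the 27416 genes listed, with TPS1 as the class I gene, 7 class II genes and 2 kinase genes. These genes and the gene lists set beside them were chosen with earlier results of these data known, so their shares are descriptions only. Messenger RNA was sequenced from whole wild-type seedlings of strain Columbia at day 10 after germination, either treated with flg22 at 1 µmol/L for 4 h or left untreated as controls. The peptide flg22 comes from bacterial flagellin and is perceived by the receptor kinase FLS2. Each group was 1 library that pooled 3 biological replicates, so the differences below lack a replicate check and the treatment could not be tested.

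Plants make trehalose 6-phosphate from UDP-glucose and glucose 6-phosphate, and this sugar phosphate rises and falls with sucrose and so serves as a signal of sugar supply. TPS1 is the synthase whose activity is well shown, whereas class II proteins join a synthase-like and a phosphatase-like domain, and for most of them no enzyme activity has been found. SnRK1, the plant relative of yeast SNF1 and animal AMPK, switches metabolism toward saving energy when sugar is short, and trehalose 6-phosphate inhibits it. Transcript levels do not report kinase activity or the amount of the sugar phosphate.

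The libraries held 24621440 gene reads with flg22 and 21414567 in the control. FRK1, a receptor-like kinase gene that flg22 is known to induce, was 85.1-fold higher with flg22 (68.7 to 107), and FLS2 was 1.27-fold higher in reads per library total. Levels are RPKM as deposited, that is, reads scaled to the listed gene length and to the library total. Folds are ratios of reads per library total, each followed in parentheses by an exact 95% Clopper-Pearson interval for counting error alone. For log2 ratios (flg22 over control) 1 RPKM was added to both levels, which understates the ratio of weak genes, and "at least 2-fold" means past 2-fold on that scale. A total of 18724 genes averaged 1 RPKM or more over the libraries and are called past the filter; their median log2 ratio was -0.03, with quartiles at -0.44 and 0.42. Of the 8 root markers 6 had log2 ratios above 0, with a median of 0.43. Only 1 was at least 2-fold lower (12.5%, against 8.27% of all genes past the filter). That gene was TIP2;3, at 24 reads with flg22 and 72 in the control. The sum of the root markers, 709 RPKM with flg22 and 858 RPKM in the control, was mostly PYK10, at 557 RPKM with flg22 and 751 RPKM in the control. All 5 leaf markers, genes of photosynthesis, were at least 2-fold lower (100%, against 8.27% of all genes past the filter). The sum of the leaf markers was 4042 RPKM with flg22 and 13913 RPKM in the control. In whole seedlings fewer cells of a type and less RNA per cell cannot be told apart, and the part of leaf transcripts in the differences below was not tested.

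All 10 members exceeded 1 RPKM in both libraries. With flg22, 4 of the 10 were at least 2-fold lower (40.0%), against 8.27% of all genes past the filter, and none was at least 2-fold higher, against 11.3% of all genes. The 4 genes were TPS8, TPS6, TPS11 and TPS9, all of class II. Of the 10 log2 ratios 9 were below 0, and their median was -0.61. In the authors' deposited table the false discovery rate of every member was 1, and the lowest p-value, that of TPS8, was 0.0582. That p-value sets 1 library against 1 library and does not measure spread between plants.

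**Figure D1:**
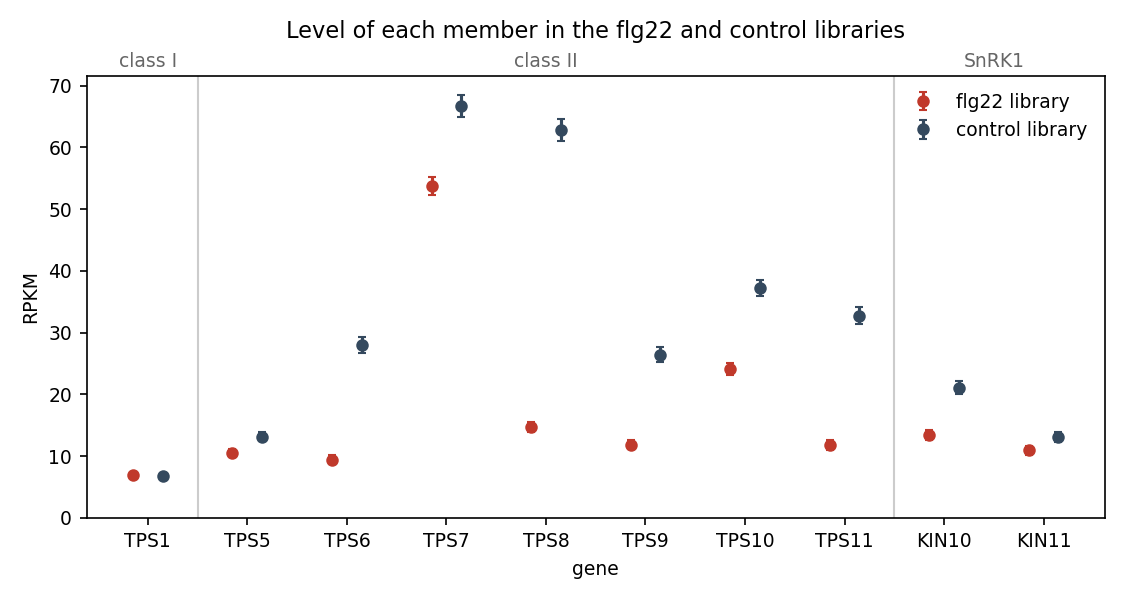
RPKM of the 10 members in the flg22 library (red) and the control library (dark blue), with exact 95% Poisson counting intervals. TPS8 stood at 14.7 RPKM with flg22 and 62.7 RPKM in the control, while TPS1 stood at 6.89 RPKM with flg22 and 6.85 RPKM in the control.

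TPS1 (AT1G78580), the class I gene, lies on chromosome 1 at 29552340 to 29560912 on the minus strand of assembly TAIR10.1. It had 1455 reads and 6.89 RPKM with flg22, against 1257 reads and 6.85 RPKM in the control, a ratio of 1.01-fold (0.933 to 1.09). The log2 ratio was 0.01 and took the opposite sign, -0.07, when all ratios were centred on reference genes. TPS1 was the member with the ratio nearest to 1, and the interval of that ratio holds 1. The listed length of TPS1, 8572 bases, is its genomic span less 1 base and so includes its introns, while its joined exons measure 5341 bases. Recomputed with exon length, TPS1 was at 11.1 RPKM with flg22 and 10.99 in the control. Its 3′ end overlaps AT1G78570 on the opposite strand by 99 bases, and the long noncoding gene AT1G09827 lies opposite to 429 bases of it. AT1G78570 had more reads than TPS1, 5910 with flg22 and 3483 in the control. Since no source used here states a stranded count, reads in those stretches cannot be assigned with certainty. TPS2 and TPS3, the close copies of TPS1, were listed at 0 reads in both libraries, and TPS4 had 3 reads with flg22 and 2 in the control, so no difference was detectable for them at this depth.

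The class II genes were lower with flg22 as a group and differed widely among themselves. All 7 had log2 ratios below 0, with a median of -1.09. Summed over the 7 genes there were 12479 reads with flg22 and 20725 in the control, 1.91-fold lower (1.87 to 1.95), and the summed RPKM was 136 with flg22 and 267 in the control. That sum was 19.7 times the TPS1 level with flg22 and 38.98 times in the control, on the listed gene lengths. With exon lengths TPS1 was at 11.1 with flg22 and 10.99 in the control, and these multiples would be smaller.

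TPS8 (AT1G70290) had the largest difference of the members, with 1342 reads and 14.7 RPKM with flg22, against 4982 reads and 62.7 RPKM in the control, 4.27-fold lower (4.02 to 4.54). Its log2 ratio of -2.02 stood above that of only 1.44% of all genes past the filter. TPS9 (AT1G23870), the member closest to TPS8 in protein sequence, with 84.6% identity over 855 aligned residues, had 1015 reads and 11.9 RPKM with flg22, against 1965 reads and 26.4 RPKM in the control. It was 2.23-fold lower (2.06 to 2.403), so the ratio of TPS8 was 0.522 times that of TPS9 (0.473 to 0.575) despite their likeness. TPS10 (AT1G60140), 72.1% identical to TPS8 and 72.8% to TPS9, had 2339 reads and 24.1 RPKM with flg22, against 3141 reads and 37.2 RPKM in the control, 1.54-fold lower (1.46 to 1.63). These 3 most similar class II genes thus covered a range of log2 ratios of -2.02, -1.09 and -0.61.

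TPS6 (AT1G68020), known for mutants with altered cell shape, had 716 reads and 9.43 RPKM with flg22, against 1848 reads and 27.98 RPKM in the control, 2.97-fold lower (2.72 to 3.24). TPS5 (AT4G17770), its closest relative among the members with 71.6% identity, had 1033 reads and 10.4 RPKM with flg22, against 1129 reads and 13.1 RPKM in the control, 1.26-fold lower (1.15 to 1.37). The ratio of TPS6 was 0.424 times that of TPS5 (0.375 to 0.479), another split within a pair of close copies. TPS6 and TPS5 overlap genes on the opposite strand by 207 and 128 bases, but the neighbour of TPS6 had 55 reads with flg22 and 28 in the control, and that of TPS5 had 2 with flg22 and 0 in the control.

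TPS11 (AT2G18700), at 59.3% identity to TPS8 or less to every class II member, had 862 reads and 11.8 RPKM with flg22, against 2080 reads and 32.7 RPKM in the control, 2.77-fold lower (2.56 to 3.01). TPS7 (AT1G06410), the most abundant member in both libraries, had 5172 reads and 53.8 RPKM with flg22, against 5580 reads and 66.7 RPKM in the control, 1.24-fold lower (1.19 to 1.29). Its log2 ratio of -0.31 lay between the quartiles of all genes. TPS6 and TPS11 were both near 3-fold lower and their ratios did not differ beyond counting error, with a ratio of ratios of 0.935 (0.830 to 1.05).

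**Figure D2:**
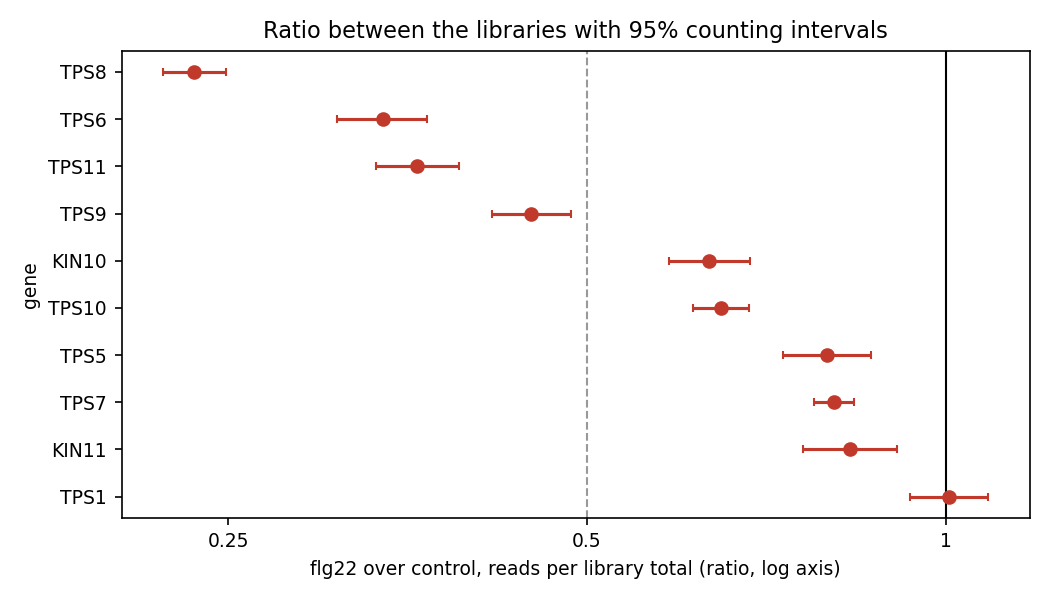
Ratio of flg22 over control in reads per library total for each member, on a log axis, with 95% counting intervals and with lines at 1 and 0.5. TPS8 lies lowest at 0.234, the intervals of TPS6, TPS11 and TPS9 end below 0.5, and that of TPS1 spans 1.

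The makeup of the class II sum differed accordingly. TPS7 made up 39.5% of the summed class II RPKM with flg22 and 24.99% in the control, and TPS8 made up 10.8% with flg22 and 23.5% in the control. TPS10 ranked next after TPS7 with flg22, at 17.7%, against 13.9% and the third place in the control. The most abundant class II gene was 5.70 times the least abundant with flg22 and 5.08 times in the control, but the least abundant was TPS6 with flg22 and TPS5 in the control. Without TPS7 the other 6 genes summed to 7307 reads with flg22 and 15145 in the control, 2.38-fold lower (2.32 to 2.45).

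**Figure D3:**
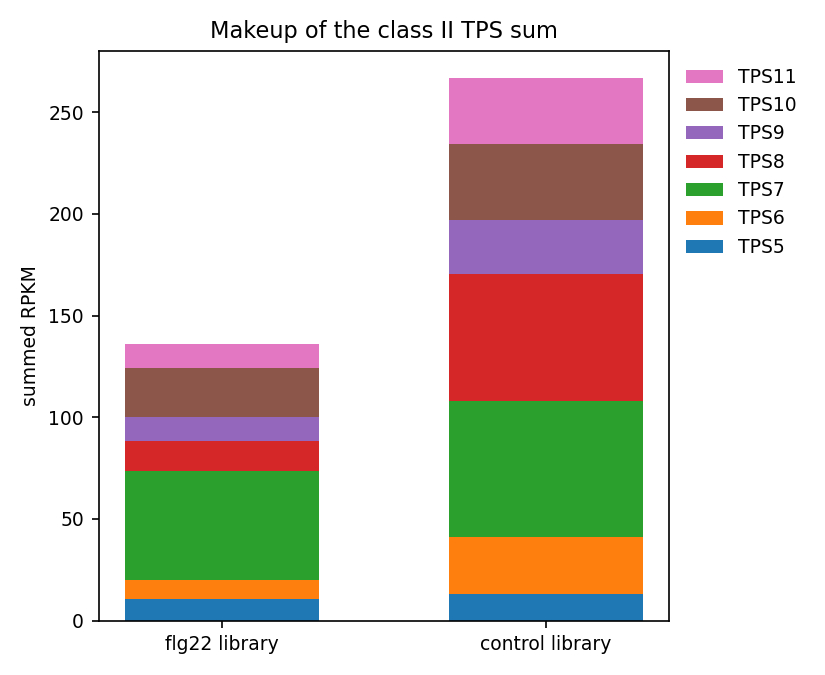
Stacked RPKM of the 7 class II genes in the flg22 library (left) and the control library (right). The total is 136 RPKM with flg22 and 267 RPKM in the control, and the TPS8 band holds 10.8% of it with flg22 and 23.5% in the control.

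Over all 10 members the order of levels in the flg22 library ran TPS7, TPS10, TPS8, KIN10, TPS9, TPS11, KIN11, TPS5, TPS6 and TPS1. In the control library it ran TPS7, TPS8, TPS10, TPS11, TPS6, TPS9, KIN10, TPS5, KIN11 and TPS1. On the listed lengths, 3 of the 9 neighbouring pairs with flg22 and 2 in the control did not differ beyond counting error. With flg22 these were TPS9 and TPS11, TPS11 and KIN11, and KIN11 and TPS5, and in the control TPS6 and TPS9, and TPS5 and KIN11. Levels between genes depend on the listed lengths, and the order was different per kilobase of exon. With flg22 TPS1 then exceeded TPS6, at 11.1 against 8.15. KIN10 and KIN11, at 18.8 and 17.8 with flg22, exceeded TPS8 at 16.3. In the control KIN10, at 29.6, exceeded TPS6 at 24.2. The counting intervals above do not cover this dependence on length.

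The class II genes share a gene structure that sets them apart from TPS1. Each of the 7 has 3 coding exons and 2 introns between them, whereas TPS1 has 17 coding exons. Their proteins run from 851 to 867 residues by conceptual translation of the TAIR10.1 coding sequences, against 942 for TPS1, and share 58.0% to 84.6% of aligned residues with each other and 34.0% to 37.7% with TPS1. The longest stretch of identical coding bases between any pair of class II genes is 32 bases, in TPS8 and TPS9, shown because reads inside such a run cannot be told apart between the copies.
Shared run of TPS8 and TPS9: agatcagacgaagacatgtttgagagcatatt

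The stretches around the start of TPS8, TPS11 and TPS9, 3 class II genes at least 2-fold lower, are shown to let their short motifs be compared, from 250 bases before to 50 bases after the first base of the RefSeq gene, in assembly TAIR10.1 and 5′ to 3′ on the strand of the gene. The motifs searched were TTGAC (the core of the W-box bound by WRKY factors), CACGTG (the G-box), ACGT (the core of many bZIP sites, also inside the G-box), TATCCA and ACTCAT (elements known from sugar- and bZIP-responsive promoters), and GATAAG (the I-box core of light-regulated promoters, looked up later), each on either strand, and capitals mark their matches.
TPS8, chr1:26474784-26475083, minus strand: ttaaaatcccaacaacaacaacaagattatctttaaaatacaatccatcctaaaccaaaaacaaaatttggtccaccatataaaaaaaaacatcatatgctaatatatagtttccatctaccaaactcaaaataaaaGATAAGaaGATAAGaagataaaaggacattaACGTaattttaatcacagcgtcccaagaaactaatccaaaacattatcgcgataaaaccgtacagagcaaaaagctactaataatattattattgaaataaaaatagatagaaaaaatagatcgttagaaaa
TPS11, chr2:8108648-8108947, plus strand: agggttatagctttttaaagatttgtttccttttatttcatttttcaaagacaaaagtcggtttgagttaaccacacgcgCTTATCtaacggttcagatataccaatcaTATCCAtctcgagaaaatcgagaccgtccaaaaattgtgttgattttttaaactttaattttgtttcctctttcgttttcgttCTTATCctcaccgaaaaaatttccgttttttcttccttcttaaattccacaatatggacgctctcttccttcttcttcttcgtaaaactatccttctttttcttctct
TPS9, chr1:8431929-8432228, plus strand: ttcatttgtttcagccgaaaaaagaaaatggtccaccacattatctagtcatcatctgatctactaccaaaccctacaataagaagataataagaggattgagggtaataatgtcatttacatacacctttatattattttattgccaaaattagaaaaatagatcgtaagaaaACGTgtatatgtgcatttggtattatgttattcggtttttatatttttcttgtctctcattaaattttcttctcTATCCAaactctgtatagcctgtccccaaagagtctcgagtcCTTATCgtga
TATCCA occurred in 3 of the 9 members searched, TPS9, TPS10 and TPS11, and in 16.1% of 26709 protein-coding promoters of the same length. TTGAC occurred in 5 of these members, none of them among the 3 shown, and in 50.5% of all promoters. ACGT occurred in 4 of these members, TPS8 and TPS9 included, and in 50.1% of promoters. ACTCAT occurred in TPS5 and in 14.7% of promoters, and CACGTG in 0 of the 9 members and in 7.79% of promoters. A match describes letters in this window and not a site in use.

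KIN10 (AT3G01090), the better-studied catalytic gene of SnRK1, had 1122 reads and 13.3 RPKM with flg22, against 1540 reads and 21.1 RPKM in the control, 1.58-fold lower (1.46 to 1.71). KIN11 (AT3G29160), whose protein is 82.3% identical to that of KIN10, had 927 reads and 10.9 RPKM with flg22, against 969 reads and 13.1 RPKM in the control, 1.20-fold lower (1.10 to 1.32). Neither was at least 2-fold lower, and their log2 ratios were -0.62 and -0.24. The ratio of KIN10 was 0.762 times that of KIN11 (0.675 to 0.859), so the balance of the genes differed between the libraries. On the listed lengths KIN10 was at 1.22 times KIN11 with flg22 (1.12 to 1.34) and at 1.61 times in the control (1.48 to 1.74). With exon lengths those values were 1.05 (0.965 to 1.15) with flg22 and 1.38 (1.28 to 1.5003) in the control. KIN10 overlaps its neighbour AT3G01100 by 13 bases on the same strand.

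Of the other SnRK1 genes the regulatory subunit KINBETA1 (AT5G21170) had the largest difference. It was at 7.02 RPKM with flg22 and 33.3 RPKM in the control, 4.75-fold lower (4.31 to 5.25), a difference near that of TPS8. KINGAMMA1 (AT3G48530) was 2.04-fold lower (1.92 to 2.17), with a log2 ratio of -1.01. It came within the 2-fold limit with median-of-ratios or TMM scaling or with a pseudocount of 5 RPKM. The remaining subunit genes past the filter, KINBETA2, KINBETA3 and SNF4 (the beta-gamma subunit gene), were within 2-fold. Of the 10 genes in this list 5 were past the filter, with a median log2 ratio of -0.14. Of these, 2 were at least 2-fold lower (40.0%, against 8.27% of all genes) and none higher. The kinase gene GRIK2, whose product activates SnRK1, was listed at 0 reads in both libraries.

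Some genes that act downstream of the synthases were higher with flg22. Of 11 genes for trehalose-6-phosphate phosphatases, which remove the phosphate, and for trehalase, which splits trehalose, 8 were past the filter. Of these, 3 were at least 2-fold higher with flg22 (37.5%, against 11.3% of all genes) and none was at least 2-fold lower, with a median log2 ratio of 0.70. With a pseudocount of 5 RPKM 1 was higher and none lower, and with 0.1 RPKM 4 were higher and 1 lower. TPPA (AT5G51460) was at 19.1 RPKM with flg22 and 5.52 RPKM in the control, 3.46-fold higher (3.11 to 3.86). TRE1 (AT4G24040), the trehalase gene, was at 12.1 RPKM with flg22 and 4.59 RPKM in the control, 2.64-fold higher (2.32 to 3.02). TPPJ (AT5G65140) was 2.52-fold higher (2.19 to 2.92). TPPH, chosen once its value was known as the gene of this list below 0, had 80 reads with flg22 and 150 in the control, 2.16-fold lower in reads per library total (1.63 to 2.86), and a log2 ratio of -0.74. TPPD, likewise chosen once its value was known, had 91 reads with flg22 and 19 in the control. It was 4.17-fold higher in reads per library total (2.52 to 7.23), the largest fold of the list past the filter. Its log2 ratio, with 1 RPKM added, was 0.97 and so within 2-fold. TPPF and TPPG were listed at 0 reads in both libraries.

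Several genes at 0 share a feature of the table. Of the 12 genes of the pathway lists at 0 reads in both libraries, 8 stand beside a row of the same listed length: TPPF, TPPG, GRIK2, BZIP1, BZIP2, BZIP11, BZIP44 and BZIP53. Over the whole table, 93.8% of 112 such rows were at 0 in both libraries, against 14.3% of the other 27304 rows. No level is therefore given for these 8 genes. None of the 10 members has such a neighbouring row.

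**Figure D4:**
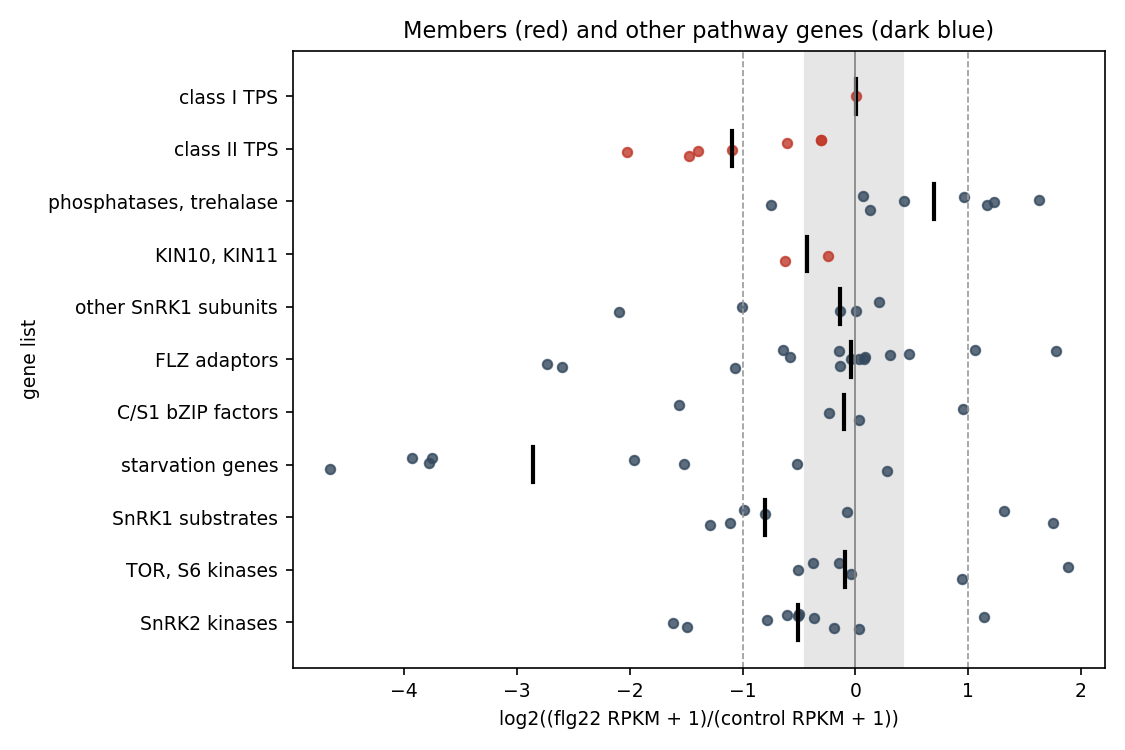
Log2 ratio of flg22 over control of each gene past the filter in the member groups (red) and in the other pathway lists (dark blue), with black bars at list medians, a grey band between the quartiles of all genes and dashed lines at 2-fold. The class II median is -1.09 and the phosphatase and trehalase median is 0.70.

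Genes known to be bound, phosphorylated or controlled by SnRK1 differed in both directions. Of 9 genes that starvation induces and that serve as readouts of SnRK1, 8 were past the filter, of which 6 were at least 2-fold lower with flg22 (75%, against 8.27% of all genes) and none higher, with a median log2 ratio of -2.86. DIN6 (AT3G47340), an asparagine synthetase gene, was at 5.49 RPKM with flg22 and 88.4 RPKM in the control, and SEN5, SEN1 and DRM2 were also more than 10-fold lower. A further gene of that list, DIN2, under the filter and chosen once its value was known, had 88 reads with flg22 and 10 in the control. Of the bZIP partners of the same pathway only 4 of 9 were past the filter. Their log2 ratios were above 0 for 2 genes and below 0 for 2, with a median of -0.10 and a highest value of 0.96. Of these 4 genes 1 was at least 2-fold lower, against 8.27% of all genes, and none was at least 2-fold higher. The lower gene was BZIP63 (AT5G28770), whose product SnRK1 phosphorylates, at 3.18-fold lower (2.82 to 3.58). Of 15 genes for FLZ proteins, adaptors that bind SnRK1, 3 were at least 2-fold lower (20.0%, against 8.27% of all genes) and the median was -0.04. The 2 at least 2-fold higher made 13.3%, near the 11.3% of all genes, and were 1 when centred on reference genes or with a pseudocount of 5 RPKM. FLZ5 (AT1G22160) was 9.80-fold lower (6.93 to 14.3), FLZ9 (AT3G63210) 6.86-fold lower (5.98 to 7.89) and FLZ14 (AT5G20700), at 108 RPKM with flg22 and 228 RPKM in the control, 2.11-fold lower. FLZ2 (AT4G17670) was 3.70-fold higher (3.175 to 4.32) and FLZ1 (AT5G47060) 2.13-fold higher (1.94 to 2.34).

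Of 8 enzyme genes whose products SnRK1-type kinases are known to phosphorylate, 7 were past the filter. Of these, 2 were at least 2-fold higher and 2 lower (28.6% each, against 11.3% and 8.27% of all genes), and the lower count was 3 when centred on reference genes and 1 with a pseudocount of 5 RPKM. The higher pair were nitrate reductase genes, NIA2 (AT1G37130) at 3.37-fold (3.31 to 3.44) and NIA1 (AT1G77760) at 2.51-fold (2.43 to 2.58). The sucrose-phosphate synthase gene SPS4F (AT4G10120) was 2.39-fold lower (2.18 to 2.63) and the sterol pathway gene HMG1 (AT1G76490) 2.46-fold lower (2.39 to 2.54). In the TOR list, the pathway that promotes growth opposite to SnRK1, S6K2 (AT3G08720) was 4.00-fold higher (3.63 to 4.42) and the other 5 genes were within 2-fold. The share at least 2-fold higher was thus 16.7%, against 11.3% of all genes. S6K1 and S6K2 are close neighbouring copies, and whether their reads could be told apart was not checked. Of the 10 SnRK2 genes, the related kinases of osmotic stress and abscisic acid signalling, 1 was at least 2-fold higher and 2 lower. Those shares were 10.0%, near the 11.3% of all genes, and 20.0%, against 8.27%. With a pseudocount of 5 RPKM none was higher and 1 was lower. SNRK2.6 (AT4G33950) was 2.37-fold higher (2.12 to 2.64), while SNRK2.9 (AT2G23030) was 4.42-fold lower (3.61 to 5.45) and SNRK2.3 (AT5G66880) 3.03-fold lower (2.74 to 3.36). The SnRK2 median log2 ratio was -0.51, beside a median of -0.43 for KIN10 and KIN11.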

How the data were processed

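RNA of 2 libraries, 1 from flg22-treated and 1 from control seedlings, was analysed from a table of read counts and RPKM per gene that the authors deposited. Bowtie, TopHat and DESeq are named without versions, beside TAIR10, per the submitters' processing notes, and the counting program is not stated there. The deposited counts are whole numbers. RPKM were made by the authors from those reads and a length headed Exon Length, per the file headers. That length is at or under the RefSeq genomic span for 26407 of the identifiers found and equals the span less 1 base for 5083. It includes introns for TPS1 and TPS9 and exceeds the joined RefSeq exons for every member except TPS6 and TPS10. For those it is below even the joined exons. The authors' log2 fold change, p-value and FDR columns, per the file headers, compare those 2 libraries. A further 2 columns of group base means were not used.

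Ratios of reads per library total have exact 95% intervals (scipy 1.17.1), and log2 ratios use a pseudocount of 1 RPKM with a filter at a mean of 1 RPKM. TMM factors came from edgeR 4.0.16. No test was possible with 1 library per group. The functions were tested on simulated counts. Sequences and gene models are from RefSeq on TAIR10.1, in which 26719 of 27416 identifiers were found; amino acids are not printed. Promoter windows were searched in 9 of the 10 members; the other, 1 of the 4 at least 2-fold lower, is not reported here.

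Members and lists were chosen with earlier results of these data known. The text names every member, in each other list up to 4 genes in each direction past 2-fold, and FRK1 and FLS2. Alternatives were the pseudocount, the filter, the scaling, exon length and a sum without TPS7.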

Additional observations from a re-analysis of the deposited data

How the results depend on the processing

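With a pseudocount of 5 RPKM in place of 1, the genes at least 2-fold higher numbered 1392 and those lower 830, against 2111 and 1548. The other pathway lists held 63 genes past the filter. With 1 RPKM, 9 of them were at least 2-fold higher (14.3%, near the 11.3% of all genes) and 16 lower (25.4%, against 8.27%). With 5 RPKM these counts were 5 and 13. TPS9 came within the 2-fold limit at a log2 ratio of -0.90, so 3 of the 10 members were lower in place of 4. The class II sum, at 0.524 of the control, was at 0.493 when centred on reference genes, at 0.539 with median-of-ratios scaling and at 0.420 without TPS7. These scalings moved every ratio by -0.09 and 0.04 on the log2 scale. With exon lengths KIN10 was at 1.05 times KIN11 with flg22 and 1.38 times in the control. TPS1, near 0, was the only member whose log2 ratio changed sign under these settings (-0.07 to 0.05), and TPS8 ranged from -2.11 to -1.78. No paired analysis was possible because each group is 1 library. Depth limits the genes with few reads, TPS4, TPPC and GRIK1 among them.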

Other observations

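A further 3 short motifs were looked up in the windows around the gene starts after the ratios were known, so what follows is a description with no test. GATAAG, on either strand, lay in the windows of TPS8, TPS9 and TPS11 and in none of the other 6 of the 9 members searched. It occurred in 14.6% of all promoters. TPS8 holds it at a pair of places 8 bases apart, TPS11 at a pair of places on the opposite strand, and TPS9 once after the gene start. Over all genes past the filter, 13.5% of the 2760 genes with GATAAG were at least 2-fold lower, against 7.37% of the 15882 without it, and the median log2 ratios were -0.15 and -0.01. Other motifs also had unequal shares of genes at least 2-fold lower. These were 14.04% with TATCCA and 7.15% without it, 11.8% with GGATA and 6.53% without it, and 12.7% with AAAATATCT and 8.14% without it, while TTGAC ran the other way at 7.30% with it and 9.31% without it. The other motifs looked up later, AAAATATCT and GGATA, lay in 0 and 3 of the 9 members, and GGATA overlaps the reverse complement of TATCCA.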
